A study of Drosophila melanogaster with 12 samples.

Results

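The genes described here are 8 genes known as receptors, secreted products and lineage factors of Drosophila blood cells: NimC1, eater, drpr, crq, Hml, Pxn, srp and lz. They were found by their symbols in the probe annotation, which gives them 9 probe sets of their own on an expression array of 11982 genes. All 8 passed the filter on dim signal and were tested among 9109 genes. Their RNA was measured in whole dissected ovaries, so a signal can come from blood cells carried with or attached to the organ, or from cells of the ovary that use the same genes.

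Drosophila blood cells, the hemocytes, are mostly plasmatocytes, which take up bacteria and dying cells and lay down extracellular matrix. Crystal cells hold the prophenol oxidases of the melanization reaction, and lamellocytes appear after wasp attack. The GATA factor srp acts early in the blood lineage and the Runx factor lz directs crystal cell fate. In the ovary the follicle cells, and not only hemocytes, remove dying germ cells, and they use some of the same engulfment receptors, drpr among them.

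Ovaries came from 4 genotypes at the suppressor of Hairy-wing locus, su(Hw), which encodes a zinc finger protein of chromatin insulators, with 3 arrays each. The su(Hw)Pb/su(Hw)2 genotype (Pb/2) and the su(Hw)2/su(Hw)v genotype (2/v) are labelled sterile, su(Hw)f/su(Hw)v (f/v) is labelled fertile, and the wild type (WT) is Canton S. The 2 allele is in both sterile genotypes and in neither fertile one, and v is in 2/v and f/v. All females were virgins of 4 to 6 h after eclosion, with egg chambers of stages 1 to 8, and the labels place the death of egg chambers without Su(Hw) at stage 9. For every array the RNA of some 150 ovary pairs was pooled, and nothing states that the pools of a genotype came from separate cultures, so p-values cover the spread between pools, which may be technical. The stock background of the mutants is not given in the sources used here, so an allele and its stock background cannot be told apart. The ovary is named as the tissue in the titles and protocols, although other label fields speak of embryos.

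Signals are given after quantile normalization, on the linear scale. Background, 66.5, is the level that 95% of the bacterial control probe sets did not exceed. Fold changes are log2 differences of signal + 16 with their standard error (SE) from limma, over 3 arrays a group, and a gene is called at an adjusted p (Benjamini-Hochberg over 9109 genes) below 0.05. The offset of 16 makes a fold change of a dim gene smaller than its true change. Within a genotype the arrays had pairwise correlations from 0.981 to 0.987, and between genotypes from 0.962 to 0.979. The targeted gene, su(Hw), had 85.8, 153 and 212 in Pb/2, 85.1, 129 and 81.4 in 2/v, 2913, 2708 and 2591 in f/v and 3865, 3562 and 3999 in WT. It was low in all arrays of the sterile genotypes and high in all arrays of the fertile ones, with a log2 fold change of -4.13 ± 0.25 in Pb/2 against f/v and -4.61 ± 0.25 in 2/v against f/v.

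NimC1 and eater, a pair of related receptors with which plasmatocytes take up bacteria, fell in both sterile genotypes against both fertile ones. For eater the call in Pb/2 against f/v held in 15 of 24 other settings, and its signals in the sterile genotypes were near or below background. The crystal cell factor lz rose in Pb/2 against f/v and WT, and the blood lineage factor srp was not called in any comparison after quantile normalization. Hml and crq fell in all mutants against WT, with no call between the sterile genotypes and f/v. The Hml calls held in 19, 15 and 10 of 24 other settings in Pb/2, 2/v and f/v, and those of crq in 12, 25 and 19 of 25. Pxn rose in f/v and 2/v against WT, though when arrays were scaled to the added hybridization controls the call in f/v was lost and the sign in 2/v turned. A fall of drpr in f/v against WT was lost when array medians were subtracted.

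**Figure D1:**
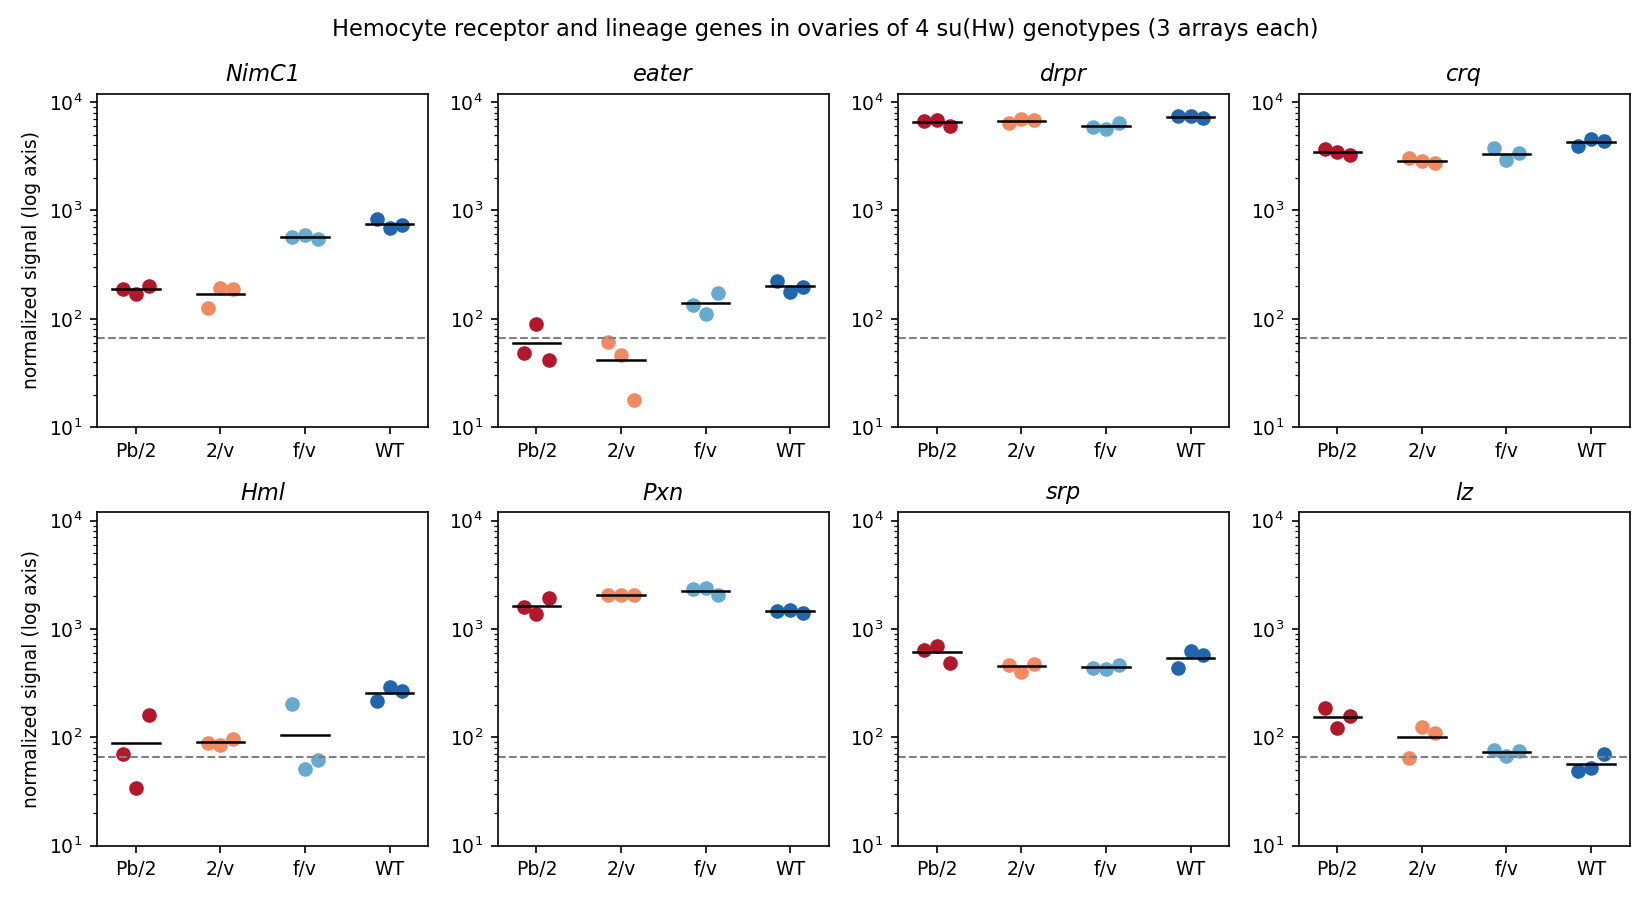
Normalized signal of the 8 genes on each of the 12 arrays (log axis), by genotype in the order Pb/2, 2/v, f/v, WT. Points are arrays, black bars are means and the dashed line is background (66.5). NimC1 and eater separate the sterile from the fertile genotypes, eater lies near background in the sterile ones, and the f/v arrays of Hml run from 51.5 to 205.

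Counted by comparison, 5 of the 8 genes were called in Pb/2 against WT, where 31.5% of all genes tested were called. Of these 1 was higher and 4 were lower, beside 15.8 and 15.7% of all genes. In 2/v against WT 6 were called, 2 higher and 4 lower, where 46.6% of all genes were called, 24.1% higher and 22.5% lower. In f/v against WT 4 were called, 1 higher and 3 lower, where 35.2% of all genes were, 18.3% higher and 16.9% lower. Against the fertile mutant, Pb/2 had 4 called, 1 higher and 3 lower, where 20.6% of all genes were, 10% higher and 10.5% lower. There 2/v had 2 called, both lower, where 27.4% of all genes were, 13.8% higher and 13.5% lower. Between Pb/2 and 2/v only Pxn was called, lower in Pb/2, where 20.4% of all genes were, 9.27% higher and 11.1% lower. The arrays of the compared groups did not overlap for 6 of the 8 genes in each mutant against WT, beside 45.5% of all genes in Pb/2, 57% in 2/v and 49.8% in f/v. Against f/v this held for 5 genes in Pb/2, beside 38% of all genes, and for 3 in 2/v, beside 43.9%, and for 3 between Pb/2 and 2/v, beside 38.8%. The median log2 fold change of the 8 genes was -0.24, -0.41 and -0.33 in Pb/2, 2/v and f/v against WT, with medians of all genes between 0.00 and 0.02. Against f/v it was -0.07 in Pb/2 and -0.05 in 2/v, with -0.02 and -0.01 over all genes. With 8 genes, 1 gene more or less moves each share widely, so nothing particular to the group was read from these counts and the genes are described singly.

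**Figure D2:**
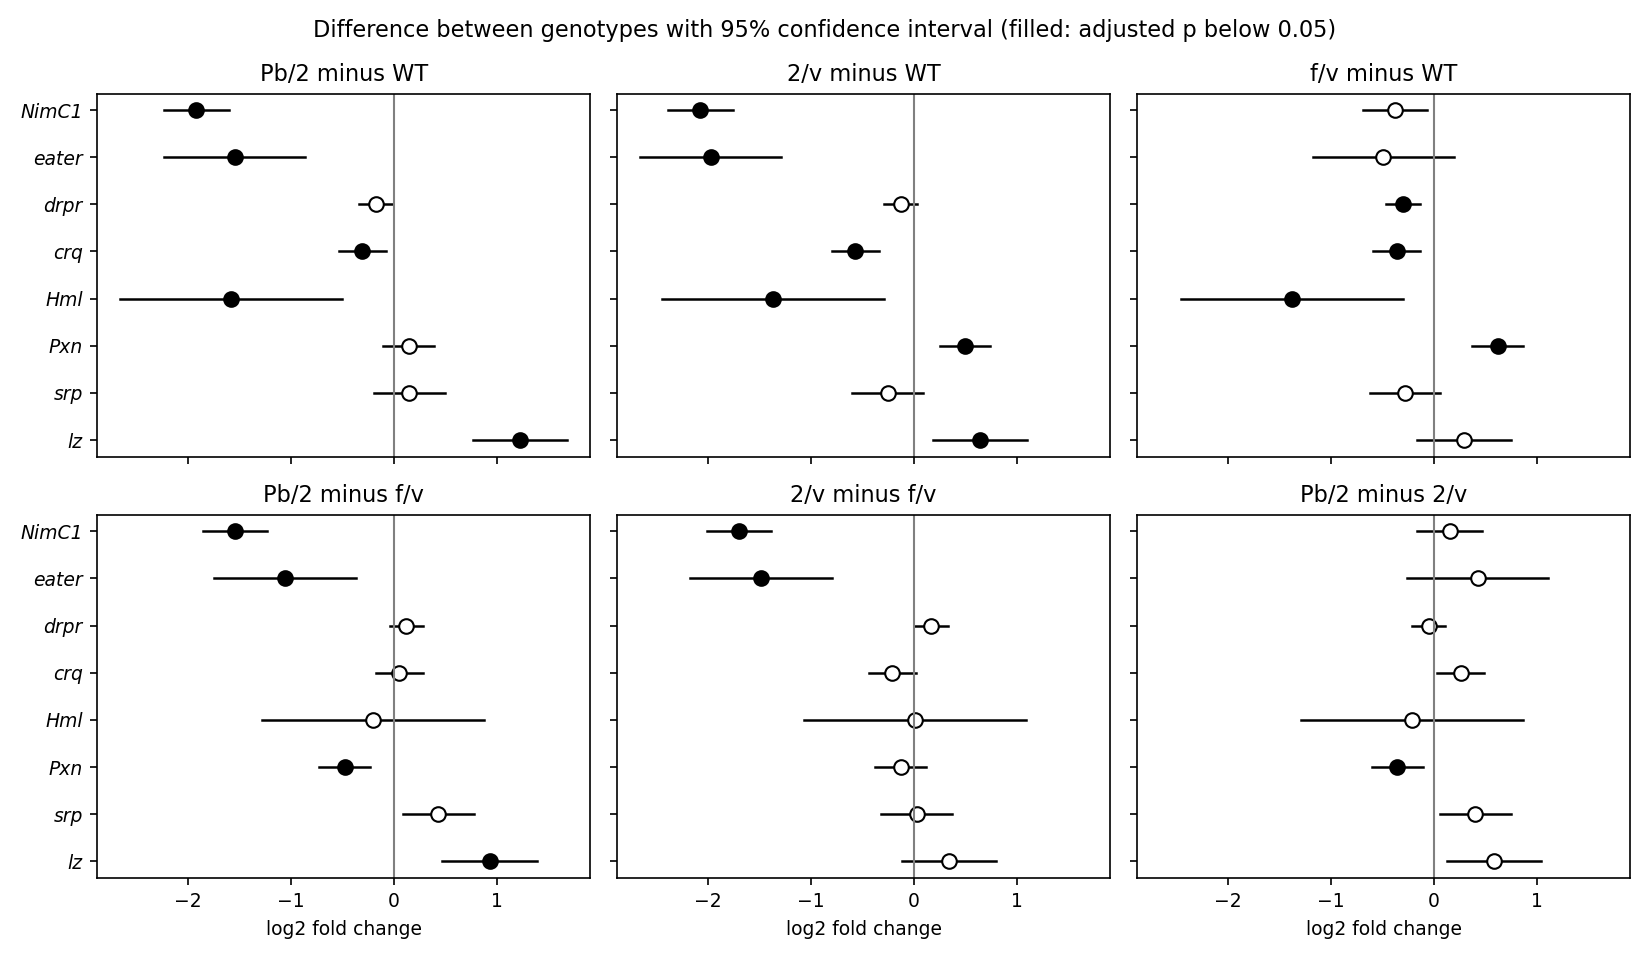
Log2 fold change of each gene in the 6 comparisons, with its 95% confidence interval. Filled points have an adjusted p below 0.05. NimC1 lies between -1.54 and -2.07 in the 4 comparisons of a sterile with a fertile genotype and at 0.15 between the sterile genotypes, while Hml has the widest intervals.

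NimC1 is a plasmatocyte surface receptor with EGF-like repeats of the nimrod type that binds bacteria. Its probe set 1639502_at had signals of 187, 170 and 202 in Pb/2 and 125, 193 and 186 in 2/v. In f/v it had 573, 599 and 545, and in WT 830, 691 and 726. Every array of the sterile genotypes was below every array of the fertile ones, and all 12 arrays were above background. Against f/v, NimC1 fell by 1.54 ± 0.14 in Pb/2 (SE, adjusted p = 3.36e-05) on the log2 scale, and fell by 1.70 ± 0.14 in 2/v (adjusted p = 1.45e-05). It was thus at 0.344 times the f/v level in Pb/2 and 0.309 times in 2/v, and by size of change it ranked 209 and 187 among the 9109 genes. Against WT it fell by 1.92 ± 0.14 in Pb/2 (adjusted p = 3.03e-06) and fell by 2.07 ± 0.14 in 2/v (adjusted p = 1.74e-06).

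From low to high the NimC1 levels were 168 ± 37.4 in 2/v (SD, n = 3), 186 ± 15.7 in Pb/2, 572 ± 27.0 in f/v and 749 ± 72.5 in WT. The neighbours f/v and WT did not overlap, but their difference of -0.38 ± 0.14 missed the threshold (adjusted p = 0.063). Pb/2 and 2/v overlapped, with a difference of 0.15 ± 0.14 (adjusted p = 0.471, 95% confidence interval -0.16 to 0.47). The calls of NimC1 in the 4 comparisons of a sterile with a fertile genotype held in each of 25 other settings of the analysis, whereas f/v against WT was called in 7 of them, including without the 2/v array of replicate 1 (adjusted p = 0.00871).

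In bulk RNA fewer hemocytes and less NimC1 RNA per hemocyte cannot be told apart. Because the ovaries were pooled, neither can a difference in all ovaries and a loss in some of them.

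The receptor eater, which carries the same kind of repeats and serves uptake and attachment by plasmatocytes, had its means in the same order. Its probe set 1627746_at had 48.6, 89.4 and 41.9 in Pb/2, 61.5, 46.2 and 17.7 in 2/v, 134, 110 and 172 in f/v, and 224, 176 and 197 in WT. All arrays of 2/v and 2 of the 3 arrays of Pb/2 were below background, and all arrays of f/v and WT were above it. No array of a sterile genotype reached the lowest array of a fertile one.

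Since eater was below background on every 2/v array, its fall there has only a bound: it was at least 2.98-fold lower in 2/v than in WT (adjusted p = 0.000542) and at least 2.05-fold lower than in f/v (adjusted p = 0.00556). A bound here sets each dim array at background. In Pb/2, where 1 of 3 arrays was above background, eater fell by 1.55 ± 0.31 against WT (SE, adjusted p = 0.00319), a size that rests in part on signals below background. Against f/v it fell by 1.06 ± 0.31 (adjusted p = 0.036), a call that was lost in 9 of 24 other settings, 5 of which left out an array. Without replicate 1 or 3 of Pb/2 the adjusted p was 0.105 or 0.109, without replicate 1 or 3 of f/v 0.0762 or 0.115, and without replicate 3 of WT 0.0515. The other 4 were the deposited scaling, an offset of 1, no filter and a replicate block, with adjusted p of 0.0538 to 0.0658.

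Between the fertile genotypes, eater averaged 139 ± 31.2 in f/v and 199 ± 24.3 in WT (SD, n = 3 each), a difference of -0.49 ± 0.31 that did not pass (adjusted p = 0.255, interval -1.18 to 0.20). Between the sterile ones it averaged 59.95 ± 25.7 in Pb/2 and 41.8 ± 22.2 in 2/v, both near or below background (adjusted p = 0.356).

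Among the receptors for dying cells, drpr (Draper, of the CED-1 type) and crq (Croquemort, of the CD36 type), WT had the highest signal and the differences were small. The drpr probe set 1638953_a_at had 6742, 6799 and 6019 in Pb/2, 6451, 6919 and 6843 in 2/v, 5852, 5694 and 6431 in f/v, and 7466, 7431 and 7176 in WT. Every WT array was above every mutant array, and the Pb/2 arrays overlapped those of 2/v and f/v.

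From low to high drpr had 5992 ± 388 in f/v (SD, n = 3), 6520 ± 435 in Pb/2, 6738 ± 251 in 2/v and 7357 ± 158 in WT. The only call was a fall of 0.30 ± 0.07 in f/v against WT (SE, adjusted p = 0.00949), which shrank to -0.07 when array medians were subtracted in place of quantile normalization. With that scaling the differences of 2/v and Pb/2 from WT, -0.13 ± 0.07 and -0.18 ± 0.07, turned to 0.20 and 0.08, and neither had passed the test (adjusted p = 0.177 and 0.0931). Under scaling to the hybridization controls both were called lower, at -0.56 and -0.71 (adjusted p = 0.00366 and 0.000798), where the medians of all genes were -0.53 and -0.60. The sterile genotypes against f/v gave 0.12 ± 0.07 in Pb/2 (adjusted p = 0.281) and 0.17 ± 0.07 in 2/v (adjusted p = 0.11), with intervals of -0.04 to 0.28 and 0.01 to 0.33.

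The crq probe set 1639387_s_at, of a type that can match more than 1 transcript family, had 3661, 3469 and 3265 in Pb/2, 3055, 2840 and 2755 in 2/v, 3781, 2917 and 3357 in f/v, and 3895, 4597 and 4373 in WT. All WT arrays were above all mutant arrays, and Pb/2 and f/v overlapped. Against WT, crq fell by 0.30 ± 0.10 in Pb/2 (SE, adjusted p = 0.0452), it fell by 0.57 ± 0.10 in 2/v (adjusted p = 0.0013) and it fell by 0.36 ± 0.10 in f/v (adjusted p = 0.0207). The call in 2/v held in 25 of 25 other settings, that in f/v in 19 and that in Pb/2 in 12, and subtracting array medians brought the values of f/v and Pb/2 to -0.17 and -0.10. Leaving out 1 array, replicate 2 or 3 of f/v or of WT, ended the call in f/v, with adjusted p of 0.0502 to 0.0763, and 9 of the 12 single arrays ended that in Pb/2. Among the mutants no pair passed, with -0.21 ± 0.10 in 2/v against f/v (adjusted p = 0.16), 0.05 ± 0.10 in Pb/2 against f/v (adjusted p = 0.76) and 0.26 ± 0.10 in Pb/2 against 2/v (adjusted p = 0.0964). The Pb/2 arrays all lay above the 2/v arrays.

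Hml (Hemolectin), a large secreted clotting protein, and Pxn (Peroxidasin), an extracellular enzyme that crosslinks collagen IV, are widely used as hemocyte markers, yet their signals did not move together. Hml, by probe set 1628018_at, had 70.0, 33.8 and 162 in Pb/2, 89.2, 85.2 and 95.5 in 2/v, 205, 51.5 and 61.1 in f/v, and 215, 290.5 and 269 in WT. WT was above every mutant array, but within Pb/2 and f/v the arrays spread on both sides of background, and 1 f/v array came close to WT.

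Against WT, Hml fell by 1.58 ± 0.49 in Pb/2 (SE, adjusted p = 0.0309), it fell by 1.36 ± 0.49 in 2/v (adjusted p = 0.0408) and it fell by 1.38 ± 0.49 in f/v (adjusted p = 0.0491). These calls were close to the threshold and held in 19, 15 and 10 of 24 other settings. Leaving out any WT array ended all 3 calls, as did leaving out replicate 1 of Pb/2. The call in f/v was also lost without replicate 2 or 3 of f/v or any 2/v array, the call in 2/v without any 2/v array, and the call in Pb/2 without its replicate 2, where the value was -1.14 (adjusted p = 0.106). Without replicate 1 of f/v, the array close to WT, Hml in f/v was at -1.93 (adjusted p = 0.00677). The sterile and fertile mutants could not be separated, with -0.20 ± 0.49 in Pb/2 against f/v (adjusted p = 0.821) and 0.02 ± 0.49 in 2/v against f/v (adjusted p = 0.985). The interval of the second difference was wide, from -1.06 to 1.09.

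Pxn had the opposite direction in f/v and 2/v. Its probe set 1640097_at had 1583, 1374 and 1924 in Pb/2, 2058, 2062 and 2057 in 2/v, 2337, 2383 and 2038 in f/v, and 1461, 1503 and 1395 in WT. All arrays of 2/v and f/v, the genotypes with the v allele, were above all arrays of Pb/2 and WT, which overlapped each other.

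Relative to WT, Pxn rose by 0.62 ± 0.11 in f/v (SE, adjusted p = 0.0016) and by 0.50 ± 0.11 in 2/v (adjusted p = 0.00442), while Pb/2 gave 0.15 ± 0.11 (adjusted p = 0.35). In Pb/2 it fell by 0.48 ± 0.11 against f/v (adjusted p = 0.0129) and fell by 0.35 ± 0.11 against 2/v (adjusted p = 0.0496), and these calls held in 22 and 5 of 25 other settings. Of the 12 fits without a single array, the second held in 1, that without replicate 3 of Pb/2. When the arrays were scaled to the added hybridization controls, which shifts the median of all genes to -0.53 in 2/v and -0.60 in Pb/2 against WT, Pxn turned to -0.11 in 2/v, still above that median, and to -0.52 in Pb/2 (adjusted p = 0.00772). The rise in f/v shrank to 0.22 there and was no longer called (adjusted p = 0.249). A second Pxn probe set, 1629847_at, was below background on all 12 arrays, between 3.49 and 31.5, and failed the filter.

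Of the lineage factors, srp was not called in any comparison after quantile normalization and lz was highest in Pb/2. The srp probe set 1629229_a_at had 640.5, 697 and 485 in Pb/2, 469, 405 and 477 in 2/v, 432, 424 and 466 in f/v, and 434, 619 and 580 in WT. Pb/2 lay above 2/v and f/v without overlap, and WT overlapped all mutants.

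In srp, Pb/2 against f/v gave 0.43 ± 0.15 (SE, adjusted p = 0.0739) and Pb/2 against 2/v gave 0.41 ± 0.15 (adjusted p = 0.0885). The difference was 0.15 ± 0.15 in Pb/2, -0.25 ± 0.15 in 2/v and -0.28 ± 0.15 in f/v against WT (adjusted p = 0.49, 0.204 and 0.187), and these values depended on the scaling. With the deposited scaling they were -0.06, -0.55 and -0.54, of which those of 2/v and f/v passed the test (adjusted p = 0.822, 0.0224 and 0.033). Under scaling to the hybridization controls all 3 passed as falls, with -0.61, -1.02 and -0.84 (adjusted p = 0.0174, 0.00104 and 0.00639). The medians of all genes in that scaling were -0.60, -0.53 and -0.33, so the value in Pb/2 was close to the shift of all genes. With array medians subtracted srp passed in Pb/2 against f/v (0.52, adjusted p = 0.0331). Without replicate 3 of Pb/2, its lowest array, Pb/2 passed against f/v (0.58, adjusted p = 0.0215) and 2/v (0.55, adjusted p = 0.0282). Without replicate 1 of WT, srp passed in Pb/2 against f/v (adjusted p = 0.0409) and, as a fall, in 2/v and f/v against WT (adjusted p = 0.0455 and 0.0468). The sterile 2/v and the fertile f/v differed by 0.03 ± 0.15 (adjusted p = 0.912), and the interval of -0.31 to 0.37 does not reach the changes of NimC1 and eater in the same comparison.

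The lz probe set 1633299_at had 186, 122 and 158 in Pb/2, 65.0, 124 and 110 in 2/v, 76.2, 67.4 and 75.0 in f/v, and 48.8, 52.0 and 69.4 in WT. The signals were low, with 2 of the 3 WT arrays and 1 of the 2/v arrays below background, and Pb/2 lay above all f/v and WT arrays.

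For lz, the rise in Pb/2 was 1.23 ± 0.21 against WT (SE, adjusted p = 0.00105), a call made in 24 of 24 other settings. Its size was smaller, 0.62 (adjusted p = 0.026), under scaling to the hybridization controls, and it rests in part on signals below background, since 1 of 3 WT arrays was above it. Against f/v the rise was 0.93 ± 0.21 (adjusted p = 0.00983), lost only when arrays were scaled to the hybridization controls (0.63, adjusted p = 0.059). In 2/v lz rose by 0.64 ± 0.21 against WT (adjusted p = 0.0266), but the groups overlapped and the call held in 17 of 24 settings, not without replicate 2 or 3 of 2/v or replicate 1 or 2 of WT (adjusted p = 0.0767 to 0.0939). With the deposited scaling that value was 0.47 (adjusted p = 0.0903), and with the hybridization controls it was 0.08 (adjusted p = 0.763). The neighbours in the order Pb/2 (155 ± 32.3, SD, n = 3), 2/v (99.9 ± 30.9), f/v (72.9 ± 4.76) and WT (56.7 ± 11.1) did not pass in any step, with adjusted p = 0.0701, 0.245 and 0.298, and f/v against WT turned from 0.30 to -0.01 under scaling to the hybridization controls.

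Across the 12 arrays the 8 genes did not vary as a block. On the log2 scale NimC1 and eater correlated at r = 0.86, while NimC1 and Hml reached 0.55, NimC1 and srp -0.15, and NimC1 and Pxn -0.14. The factor lz ran against both receptors, at -0.71 with NimC1 and -0.74 with eater. Pxn ran against srp at -0.76 and against drpr at -0.78. These values describe 12 arrays that fall into 4 genotypes, so they mostly restate the differences between groups and carry no test.

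Of all other genes tested, su(Hw) itself had the pattern most like NimC1, with r = 0.983 over the 12 arrays, and the next was CG4950 at 0.981. Such values, picked as the highest over all genes, also mostly restate differences between the genotypes and carry no test. CG4950 had 158, 153 and 182 in Pb/2, 89.0, 193 and 179 in 2/v, 509, 433 and 481 in f/v, and 920, 902 and 810 in WT. Its 2/v array of replicate 1 was the lowest, as it was for NimC1. The genes most like eater were the Hox gene Antp (0.957), which is also one of the blood lineage regulators, and Pgant6 (0.954), an enzyme of protein O-glycosylation.

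**Figure D3:**
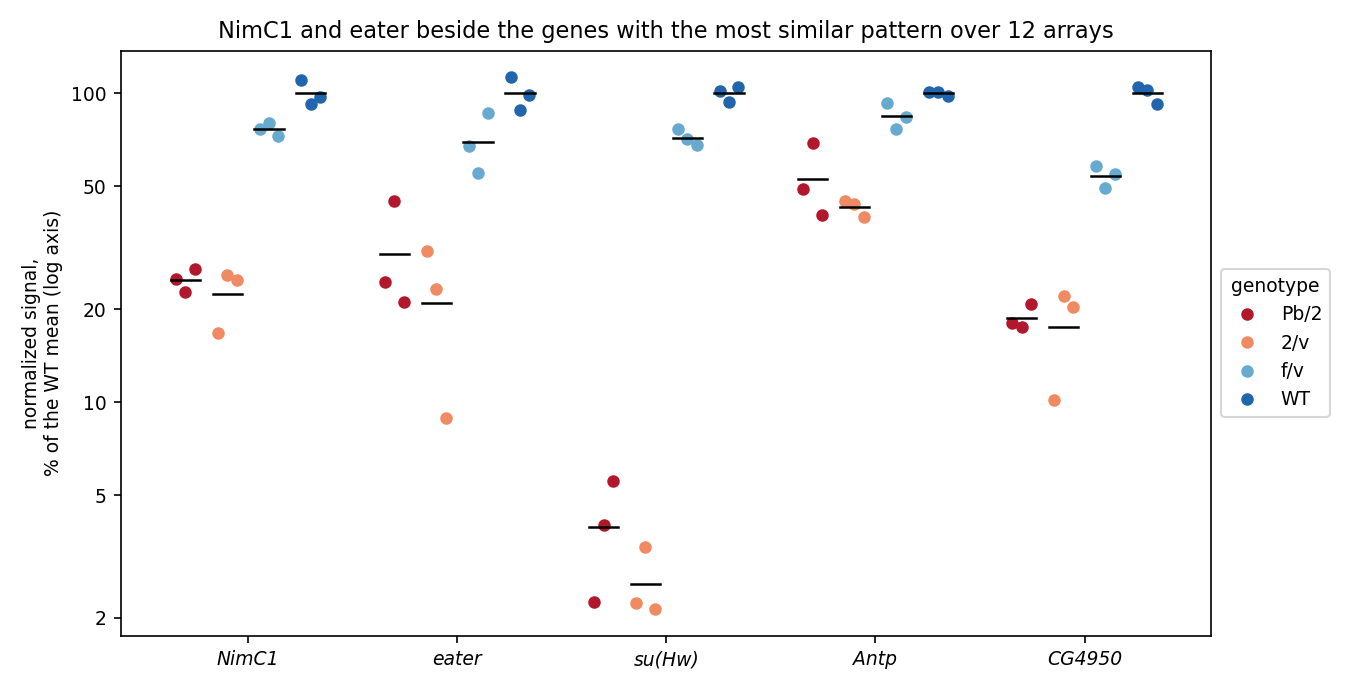
Signal as a percentage of the WT mean (log axis) for NimC1, eater, su(Hw), Antp and CG4950 on each array, by genotype in the order Pb/2, 2/v, f/v, WT; bars are group means. NimC1 stood at 24.9, 22.5 and 76.4% of WT in Pb/2, 2/v and f/v, and su(Hw), which is the mutated gene, at 3.94, 2.58 and 71.9%.

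The remaining genes had other partners. Hml was most like Daao2 (r = 0.902) and Cpr62Bb (0.889). Those closest to lz were Dcp-1 (0.914), an effector caspase, and CG17816 (0.905), and to srp they were CG10903 (0.929) and CG4297 (0.926). For crq they were Smox (0.970), a Smad protein of the activin pathway, and Fmr1 (0.947), an RNA-binding protein. Pxn was most like CG7430 (0.967) and CG8892 (0.936), and drpr most like kune (0.95), a claudin of septate junctions, and Paip2 (0.933).

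Other plasmatocyte receptors and secreted products moved in the direction of NimC1 in part. Of 20 genes tested from a list of 29, 9 fell and 0 rose in Pb/2 against f/v by limma, and in the 2/v comparison with f/v the falls numbered 7 and the rises 0. No gene of the list was called higher in these comparisons under the other 3 scalings either. The list's median log2 fold change was -0.34 in Pb/2 and -0.17 in 2/v, beside -0.02 and -0.01 over all genes, of which 10.5 and 13.5% were called lower and 10 and 13.8% higher. At an unadjusted p below 0.05, 1 gene was higher in Pb/2 and 0 in 2/v. The scalings other than the first were tried on the lists after their values were seen.

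NimC4, a nimrod receptor with which phagocytes bind dying cells, changed most in Pb/2 against f/v, where it fell by 1.45 ± 0.25 (SE, adjusted p = 0.00258). It had 305, 224 and 121 in Pb/2, 330, 272 and 307 in 2/v, 491, 631 and 638 in f/v, and 1552, 1890 and 1734 in WT. It also fell by 0.91 ± 0.25 in 2/v against f/v (adjusted p = 0.0232) and fell in all 3 mutants against WT, with log2 fold changes of -2.99 in Pb/2, -2.45 in 2/v and -1.54 in f/v. The sterile genotypes were lowest, as for NimC1, but f/v also stood clear of WT. NimB2, a secreted nimrod protein, fell by 1.13 ± 0.13 in Pb/2 (adjusted p = 0.000176) and fell by 0.52 ± 0.13 in 2/v (adjusted p = 0.0152) against f/v. Glt (Glutactin), a matrix glycoprotein, fell by 0.75 ± 0.10 in Pb/2 (adjusted p = 0.000553) and fell by 0.83 ± 0.10 in 2/v (adjusted p = 0.000231) against f/v. In 2/v against f/v the class C scavenger receptor Sr-CI fell by 0.91 ± 0.18 (adjusted p = 0.00398), while Pb/2 gave -0.39 ± 0.18 (adjusted p = 0.153).

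He (Hemese), a hemocyte surface protein, was below background on all 6 arrays of the sterile genotypes, with means of 49.6 in Pb/2 and 41.2 in 2/v, and on 1 of 3 arrays each of f/v (mean 93.7) and WT (mean 76.8). Its bound was a signal at least 1.35-fold lower in Pb/2 (adjusted p = 0.0323) and in 2/v (adjusted p = 0.00788) than in f/v. Against WT, He was called lower in 2/v (adjusted p = 0.0157) but not in Pb/2 (adjusted p = 0.0822). On the Release 6 assembly He is a neighbour of NimC1 within the nimrod gene cluster, where 8 of the 10 nimrod genes with a probe set were tested. The neighbour on the other side, Cyp28a5, was called higher in all mutants against WT, by 0.82, 0.93 and 1.14 in Pb/2, 2/v and f/v. It was not called against f/v (adjusted p = 0.252 in Pb/2 and 0.427 in 2/v). NimC3 of the same cluster passed in no comparison, with means of 3803 in Pb/2, 3583 in 2/v, 4041 in f/v and 4054 in WT. The place of He and the values of Cyp28a5 and NimC3 were singled out after they were seen.

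Relative to WT the plasmatocyte list had 10 genes called lower and 1 higher in Pb/2, 9 lower and 2 higher in 2/v, and 7 lower and 4 higher in f/v, with medians of -0.52, -0.39 and -0.18. Of all genes 15.7, 22.5 and 16.9% were called lower there and 15.8, 24.1 and 18.3% higher. The scavenger receptor gene Sr-CIV went the other way. It rose by 1.17 ± 0.21 in Pb/2 (adjusted p = 0.00152), 0.99 ± 0.21 in 2/v (adjusted p = 0.00322) and 0.75 ± 0.21 in f/v (adjusted p = 0.0181), from a WT mean of 70.2, near background. With hybridization controls 0 genes of the list were called higher in 2/v and f/v. Sr-CIV is named after its values were seen. PGRP-SC2, a peptidoglycan amidase that is also made in the gut, was among the 3 largest falls in all mutants, with log2 fold changes of -2.29, -2.52 and -2.13 in Pb/2, 2/v and f/v. Ppn (Papilin), a matrix protein, fell by 1.18 ± 0.07 in Pb/2 (adjusted p = 5.39e-07), fell by 1.43 ± 0.07 in 2/v (adjusted p = 1.29e-07) and fell by 0.95 ± 0.07 in f/v (adjusted p = 3.16e-06).

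Among the crystal cell and lamellocyte genes few were called against f/v. Of 9 tested, 1 rose and 1 fell in Pb/2 against f/v, and 0 were called in 2/v against f/v by limma, with 1 higher at an unadjusted p below 0.05. Of all genes 20.6 and 27.4% were called in these comparisons. Those in Pb/2 were peb (0.39 ± 0.11, adjusted p = 0.0295), a zinc finger factor that is also used in follicle cells, and the filamin gene cher (-0.38 ± 0.10, adjusted p = 0.0209). The prophenol oxidase genes PPO1 and PPO2, which define crystal cells, were not called in any of the 6 comparisons and are named after their values were seen. PPO1 averaged 53.2 in Pb/2, 68.0 in 2/v, 69.4 in f/v and 93.0 in WT, near background, and PPO2 averaged 166, 161, 151 and 140 in the same order. Against WT 1 of the 9 was higher and 2 lower in Pb/2, 2 higher and 3 lower in 2/v, and 2 higher and 2 lower in f/v. Of all genes 31.5, 46.6 and 35.2% were called there. klu fell by 0.87 ± 0.24 in Pb/2 (adjusted p = 0.0187) and fell by 1.17 ± 0.24 in 2/v (adjusted p = 0.00268), and mys fell by 0.62 ± 0.17 in 2/v (adjusted p = 0.0132). The lamellocyte marker atilla fell by 0.58 in Pb/2, fell by 0.62 in 2/v and fell by 0.81 in f/v against WT, and msn, a kinase used in many epithelia, rose by 0.98, 0.71 and 0.84 in Pb/2, 2/v and f/v. PPO3 fell in Pb/2 against 2/v (-1.17 ± 0.36, adjusted p = 0.0425).

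Among regulators of the blood lineage, 14 of a list of 23 were tested. Antp, which marks the posterior signalling centre of the lymph gland, fell by 0.68 ± 0.15 in Pb/2 (adjusted p = 0.011) and fell by 0.93 ± 0.15 in 2/v against f/v (adjusted p = 0.00143), with -0.92 and -1.17 against WT. It had 283, 399 and 234 in Pb/2, 261, 254 and 231 in 2/v, 539, 445 and 486 in f/v, and 587, 585 and 568 in WT, with no overlap between the sterile and the fertile genotypes. In total 1 regulator rose and 1 fell in Pb/2 against f/v, and 2 rose and 2 fell in 2/v against f/v, beside 20.6 and 27.4% of all genes called in either direction. The growth factor gene Pvf2 rose in all mutants against WT, by 0.95, 0.71 and 1.23 in Pb/2, 2/v and f/v, though under scaling to the hybridization controls it turned to -0.07 in 2/v and was not called in Pb/2 (0.18). The repressor gene zfh1 fell in all 3, with -0.74, -1.29 and -1.05 in the same order.

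In the engulfment pathway of drpr, 10 genes were tested from a list of 14. In Pb/2 against f/v 4 rose and 1 fell, where 10% of all genes rose and 10.5% fell, and in 2/v against f/v 4 rose and 2 fell, where 13.8% of all genes rose and 13.5% fell. NimC4 was among those that fell in both. Under scaling to the hybridization controls 1 rose and 1 fell in Pb/2, and 1 rose and 2 fell in 2/v. scb, an integrin alpha subunit that acts in phagocytosis with Itgbn, had 888, 861 and 784 in Pb/2, 1394, 1249 and 1108 in 2/v, 481, 489 and 477 in f/v, and 223, 223 and 263 in WT. The groups did not overlap, and scb rose by 0.79 ± 0.10 in Pb/2 (adjusted p = 0.000262) and by 1.34 ± 0.10 in 2/v against f/v (adjusted p = 4.94e-06). ced-6, the adaptor that binds Draper, rose by 0.59 ± 0.13 in Pb/2 (adjusted p = 0.00862) and by 0.64 ± 0.13 in 2/v against f/v (adjusted p = 0.00437), and both calls missed the threshold under scaling to the hybridization controls (adjusted p = 0.144 and 0.0505).

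Paralogs of the members did not share one direction. Of 10 class B scavenger receptors related to crq, 1 rose and 3 fell in Pb/2 against f/v, and 1 rose and 4 fell in 2/v against f/v. For all paralogs the shares of all genes to set beside are 10% higher and 10.5% lower in Pb/2, and 13.8% higher and 13.5% lower in 2/v. Snmp1, known for pheromone sensing, changed most and fell by 1.40 ± 0.08 in Pb/2 (adjusted p = 1.05e-06) and fell by 1.16 ± 0.08 in 2/v (adjusted p = 3.99e-06). Of 6 heme peroxidases related to Pxn, 0 rose and 3 fell in Pb/2 against f/v and 2 rose and 2 fell in 2/v against f/v by limma, with 0 higher in Pb/2 also at an unadjusted p below 0.05. Pxt, a peroxidase of the ovary that acts in follicle development, fell by 0.77 ± 0.09 in Pb/2 (adjusted p = 0.000136) and fell by 1.45 ± 0.09 in 2/v (adjusted p = 1.23e-06). CG4009 fell by 2.74 ± 0.18 in Pb/2 and fell by 1.52 ± 0.18 in 2/v. Of 4 GATA and Runx relatives, only Bgb, which encodes the Runx partner protein, was called against f/v, with a rise of 0.51 ± 0.15 in 2/v (adjusted p = 0.0273).

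**Figure D4:**
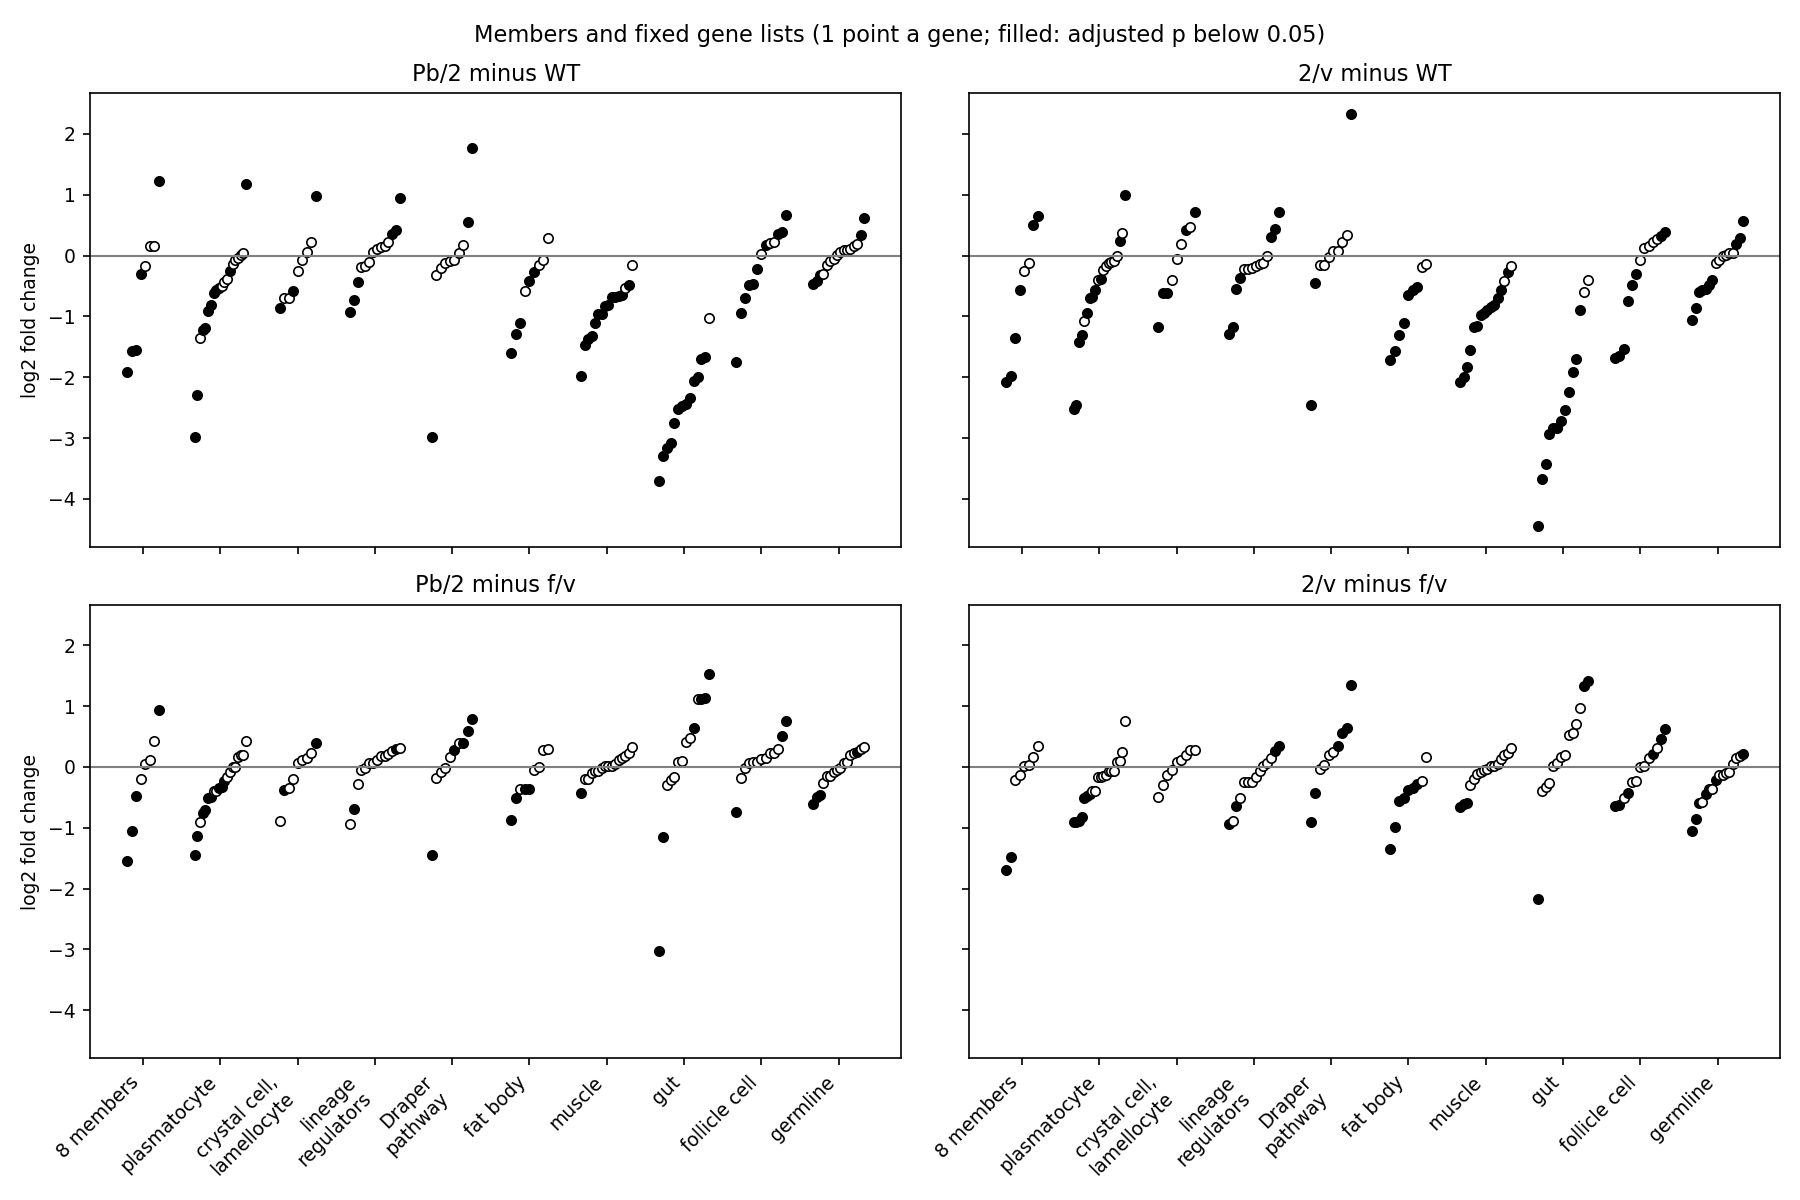
Log2 fold change of the 8 genes and of the tested genes of 9 fixed lists in the sterile genotypes against WT (top) and against f/v (bottom). Each point is a gene, sorted by value within its list, and filled points have an adjusted p below 0.05. Against WT the muscle and gut markers are mostly below 0, and against f/v they and the plasmatocyte genes lie on both sides of 0. The plasmatocyte, fat body and muscle lists have no gene called higher against f/v.

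Markers of gut and muscle also differed, and whether their RNA came from tissue adhering to the ovary or from the ovary itself was not tested. Gut markers were lower in the mutants, with 13 of 14 called lower in Pb/2, 12 in 2/v and 13 in f/v against WT, where 15.7, 22.5 and 16.9% of all genes were. Their summed signal was 1613 to 1739 in Pb/2, 1550 to 1705 in 2/v, 1246 to 1589 in f/v and 12760 to 14705 in WT. Muscle markers were lower in 14 of 16 in each mutant, with sums of 65624 to 68310 in Pb/2, 59633 to 64715 in 2/v, 64828 to 68797 in f/v and 116127 to 118549 in WT. All mutants thus stood apart from WT in these sums, as they did for Hml, crq and drpr. The part of gut and muscle RNA in those falls was not tested.

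In the sterile genotypes, where NimC1 and eater fell against f/v, the muscle and gut sums were nearer to f/v than to WT. The muscle sums of 2/v (59633 to 64715) lay below every f/v array (64828 to 68797). Gut sums of Pb/2 (1613 to 1739) lay above every f/v array (1246 to 1589). The gut sums hide changes of single genes in both directions. Against f/v, Jon99Ci was at least 4.26-fold lower in Pb/2 and Jon99Fi at least 2.41-fold lower in 2/v, while alphaTry rose by 1.41 ± 0.19 in 2/v. Muscle stood at 57.1% of WT in Pb/2, 53.4% in 2/v and 56.6% in f/v, and gut at 12.2, 11.8 and 10.3%. Of 16 muscle markers 1 was lower in Pb/2 and 3 were in 2/v against f/v, and of 14 gut markers 4 were higher and 2 lower in Pb/2 and 2 higher and 1 lower in 2/v. Of all genes 10% were higher and 10.5% lower in Pb/2, and 13.8% higher and 13.5% lower in 2/v, so the gut rises in Pb/2 exceeded that share. NimC1 stood at 24.9, 22.5 and 76.4% of WT in Pb/2, 2/v and f/v. Fat body markers fell with NimC1 in part. Of 9 tested, 4 were lower in Pb/2 and 7 in 2/v against f/v, beside 10.5 and 13.5% of all genes, with sums of 25629 to 27780 in Pb/2, 21368 to 22998 in 2/v, 28573 to 30088 in f/v and 31131 to 31785 in WT. Fbp1, a receptor for storage proteins, fell by 0.87 ± 0.08 in Pb/2 (adjusted p = 4.23e-05) and fell by 0.98 ± 0.08 in 2/v (adjusted p = 1.53e-05). FASN1 fell in 2/v only, with means of 8372 in Pb/2, 4689 in 2/v and 6836 in f/v. It differed by 0.85 ± 0.13 between Pb/2 and 2/v (adjusted p = 0.00192). FASN1 and Desat1 (mean 10832 in Pb/2 and 13840 in f/v) weigh heavily in the sums. The part of fat body RNA in the fall of NimC1 and eater was not tested.

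Follicle cell and germline markers had calls in both directions. The summed follicle cell markers were at 106% of WT in Pb/2, 99.7% in 2/v and 88.7% in f/v, and germline markers at 101, 93.3 and 103%. These sums hide changes of single genes. Of 13 follicle cell markers, 4 rose and 6 fell in Pb/2 against WT, 2 rose and 6 fell in 2/v, and 3 rose and 8 fell in f/v. Of all genes 15.8, 24.1 and 18.3% were called higher and 15.7, 22.5 and 16.9% lower there. The falls of follicle cell markers exceeded these shares in each mutant, and the rises did so in Pb/2 and f/v but not in 2/v. The same shares stand beside the germline counts against WT. The transcription factor gene cas, of that list and named after its values were seen, averaged 332 in Pb/2, 359.8 in 2/v, 571 in f/v and 1152 in WT, and fell in each mutant (adjusted p = 5.63e-05, 7.6e-05 and 0.00252). Of 16 germline markers, 2 rose and 3 fell in Pb/2 against WT, 3 rose and 7 fell in 2/v, and 2 rose and 0 fell in f/v by limma, with 2 lower at an unadjusted p below 0.05. In Pb/2 against f/v 2 of 13 follicle cell markers rose and 1 fell, and of 16 germline markers 1 rose and 3 fell. In 2/v against f/v the counts were 3 higher and 3 lower for follicle cells and 1 higher and 6 lower for the germline. Against f/v, 10% of all genes were called higher and 10.5% lower in Pb/2, and 13.8% higher and 13.5% lower in 2/v. In the sums of neither list did both sterile means lie on one side of both fertile means, as those of NimC1 and eater did. Single markers did, cas among them. The germline markers exu and bam were called lower in both sterile genotypes against f/v. exu averaged 3859 in Pb/2, 2848 in 2/v, 5917 in f/v and 5222 in WT, and bam 788, 735, 1117 and 1082 in the same order.

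**Figure D5:**
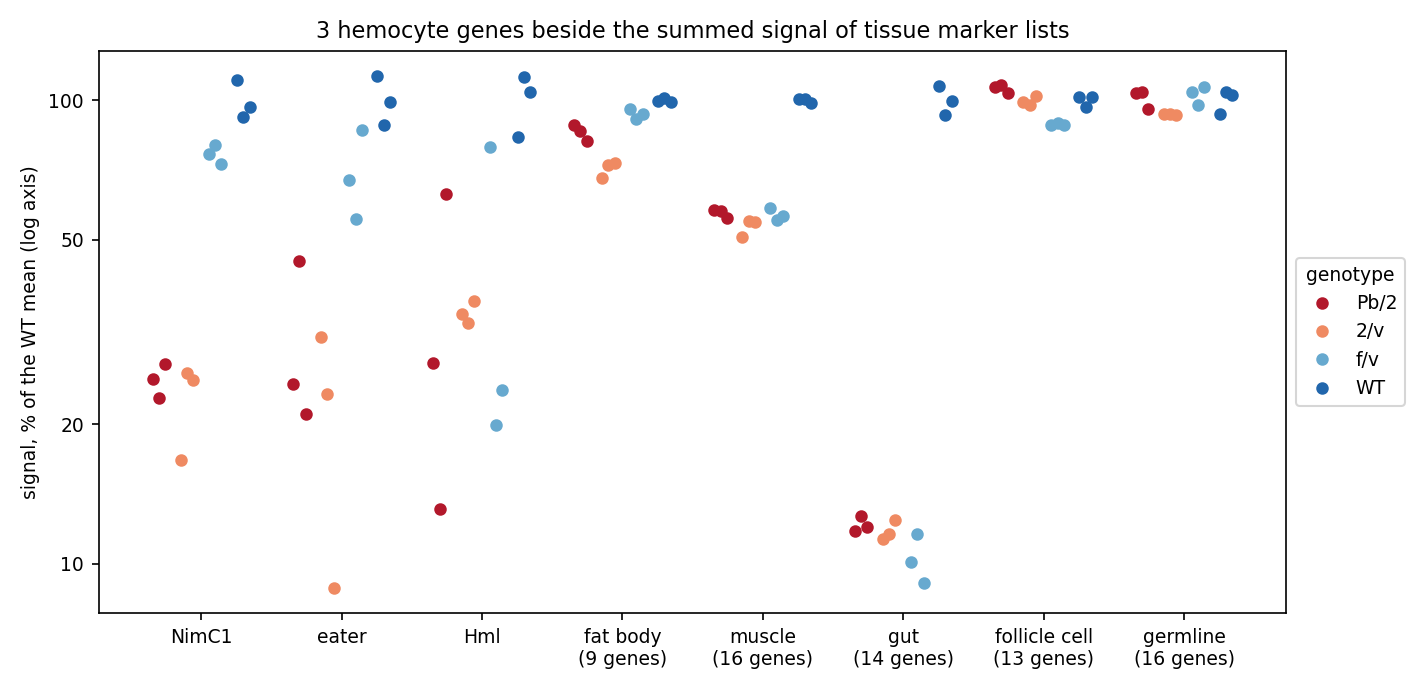
Signal as a percentage of the WT mean (log axis) on each array for NimC1, eater and Hml and for the summed markers of 5 tissues, by genotype in the order Pb/2, 2/v, f/v, WT. Gut and muscle sums are low in all 3 mutants, fat body sums are lowest in 2/v and Pb/2, and NimC1 and eater are lowest in Pb/2 and 2/v.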

How the data were processed

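Ovary RNA of 4 genotypes, 3 pools each, was hybridized to 12 Affymetrix Drosophila Genome 2.0 arrays after amplification of 50 ng of total RNA by single primer isothermal amplification, per the labels. The deposited intensities, 1 value per probe set, were made by the authors with GCOS, per the submitters' processing notes, whose version and settings were not given in the sources used. When trimmed by 2% at each end, each array averages 1500, so the authors' values were already scaled. Probe sets were named by the platform annotation, updated to current symbols for 13544 of them: 13647 have 1 gene, 402 several and 4720 none, and 183 are controls.

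The medians of the arrays spanned 0.39 (log2), and log2(signal + 16) was therefore quantile normalized. A probe set was kept if it exceeded its array's 40th percentile on at least 3 of 12 arrays, with the brightest single-gene probe set for each of 9109 genes. The 4 group means were fitted to all 12 arrays with limma 3.58.1 in R 4.3.3 (lmFit, eBayes, 8 residual degrees of freedom) and p-values adjusted by Benjamini-Hochberg. Background was set so that 95% of the 27 bacterial control probe sets lay at or below it. A bound sets each array of the dim group at background where it is below it. The fit was tested on simulated data. With 3 arrays a group the number of arrays limits the precision. Figures were drawn with matplotlib 3.10.9.

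Every member is named. From the other lists, up to 3 called genes with the largest change per comparison are named, and for likeness the 2 genes with the highest Pearson r. The members and lists were chosen with earlier results of these data known. Same-numbered arrays of different genotypes did not deviate together (18 correlations of deviations, -0.15 to 0.10, none above 0.1), so the numbers were not taken to pair samples. Alternatives were 3 other scalings, other offsets, filters and probe set rules, robust fits, array weights, fits of 2 groups, a replicate block and leaving out each array.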

Additional observations from a re-analysis of the deposited data

How the results depend on the processing

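Of the values recomputed in other settings, 534 kept their side of the threshold and direction, 35 lost the call, 22 gained one and 15 changed sign, and when single arrays were left out these numbers were 502, 54, 9 and 11. The falls of NimC1 in both sterile genotypes against f/v and WT kept their direction and their call in every setting run, and those of eater did so in 3 of 4 comparisons. The scalings differed over all genes. Of all genes called, the share that was higher in Pb/2, 2/v and f/v against WT was 50.2, 51.8 and 52.0%, against 69.9, 71.6 and 67.3% with array medians subtracted and 5.25, 7.04 and 10.9% with arrays scaled to the hybridization controls, whose signals were 1.48, 1.39 and 1.23 times those of WT. With the deposited scaling it was 40.3, 42.2 and 41.3%. In Pb/2 and 2/v against f/v it was 48.9 and 50.5%, against 15.1 and 22.8% with the hybridization controls, and between Pb/2 and 2/v it was 45.4%, against 36.0% with them. The medians of all genes moved to -0.60, -0.53 and -0.33 against WT with these controls and to 0.17, 0.21 and 0.16 with array medians. The cause of these shifts was not tested.

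Of the 8 genes, 4 were called in f/v against WT and 2 with array medians subtracted, with 2 to 4 when single arrays were left out. Over all genes tested, 3209 of 9109 were called there, 3508 with array medians subtracted and 2540 to 3290 without single arrays. In Pb/2 against WT 5 were called, 8 with the hybridization controls and 3 to 5 without single arrays. Over all genes, 2869 of 9109 were called there and 2308 to 2949 without single arrays. With the hybridization controls 7120 of 9109 were called, 6746 of them lower, so most genes were called in that setting. At a filter at the 60th percentile, which drops eater, Hml and lz, 2 were called in Pb/2 against WT, 3 in 2/v against WT, 1 in 2/v against f/v and 2 in Pb/2 against 2/v. Of the 6561 genes tested with that filter, 2407, 3756, 2342 and 2018 were called in the same order. The single call in Pb/2 against 2/v, Pxn, became 0 with the values as deposited, array medians, hybridization controls, an offset of 1, no filter, the mean of probe sets, every probe set separately, fits of 2 groups or the replicate block, became 4 with array weights, and was 0 to 2 without single arrays. Over the whole array 1857 genes were called there, and 672 to 1899 genes or probe sets in the settings with 0. With array weights 2425 genes were called, and without single arrays 994 to 1859.

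Scaling to the hybridization controls turned the log2 fold change of srp to -0.61 and of Pxn to -0.52 in Pb/2 against WT, of Pxn to -0.11 in 2/v against WT, of lz to -0.0080 in f/v against WT, of crq to -0.22 and drpr to -0.15 in Pb/2 against f/v, and of Hml to -0.22 and srp to -0.18 in 2/v against f/v. Subtracting array medians turned drpr to 0.20 in 2/v and 0.083 in Pb/2 against WT. The deposited scaling turned srp to -0.060 in Pb/2 against WT and, in 2/v against f/v, srp to -0.010 and Hml to -0.068. Hml there was also -0.030 with an offset of 64 and -0.067 with array weights. Without single arrays, values that changed sign ran from -0.026 to 0.26 for NimC1, from -0.70 to 0.22 for Hml and from -0.080 to 0.0076 for drpr in Pb/2 against 2/v, from -0.68 to 0.34 for Hml and from -0.041 to 0.14 for crq in Pb/2 against f/v, and from -0.30 to 0.55 for Hml and from -0.014 to 0.099 for srp in 2/v against f/v. None of these was called in the values reported except Pxn in 2/v against WT. The replicate block, on numbers that share no more than a number, left 0 genes called in Pb/2 against 2/v and ended the calls of eater in Pb/2 against f/v, Hml in f/v against WT and crq in Pb/2 against WT (adjusted p = 0.0562, 0.0602 and 0.0754).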
